A study of Mus musculus with 5 samples.

Results

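Pthlh-expressing resting chondrocytes were taken from single-cell profiles of the mouse growth plate as 328 of the 82516 cells that passed the quality limits. They were chosen by their own counts. A cell counted as a member when it held at least 2 Pthlh transcripts and at least 300 Col2a1 transcripts per 10000 transcripts of the cell, each transcript being counted once through its molecular identifier (UMI). Members also held fewer than 20 UMIs per 10000 of Prg4, a lubricin of the joint surface, and of Mgp, a matrix Gla protein, and fewer than 10 per 10000 of Col10a1, the collagen of hypertrophic cartilage. Their sum of the division genes Mki67 and Top2a was under 3 UMIs, and so was Ihh, the hedgehog ligand of prehypertrophic cells. Cells that met these limits with any Pthlh count, 22332 in all, are called gate cells here. The 5 pups were littermates, and their cells came from the growth plate cartilage of femur and tibia. The labels give the strain as C57BL/6J, while by the study's methods the Col2a1-Cre line began on B6SJLF1 and was later bred to C57BL/6J. The 2 WT pups (pups 1 and 2) were compared with 3 mutant pups (pups 3, 4 and 5), in which Cre recombinase driven by the Col2a1 promoter switches on 1 conditional knock-in allele of Trpv4 p.R594H, an activating change of a calcium channel. Recombination follows the expression of that promoter in chondrocytes and was not measured cell by cell. Whether the WT pups carried Cre or the unrecombined allele was not given in the sources used here. The sample labels give the age as postnatal day 5 and the series text as day 3.

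The growth plate is a layered cartilage in which round resting chondrocytes lie beneath the joint end of the bone, feed columns of flat proliferating cells and stand farthest from the enlarging hypertrophic cells. Pthlh encodes PTHrP, a secreted peptide that acts on the receptor Pth1r and keeps chondrocytes from leaving the proliferating pool too early. Prehypertrophic cells secrete Ihh, which through Ptch1, Smo and the Gli factors sustains Pthlh at the far end of the plate, so that both signals form a feedback loop. Cells that make PTHrP in the resting zone are known for giving rise to columns of chondrocytes after birth.

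Each pup was captured as a library of its own, with 117746735 to 183322632 UMIs in 14003 to 19589 cells. Depth differed with genotype, since the median gate cell held 12204 and 11265 UMIs in the WT pups and 8213, 7154 and 8436 in the mutant pups. Of 84326 barcodes, 56 occurred in more than 1 library, and 1 member carried such a barcode. Xist, transcribed from the inactive X chromosome, and the Y-linked Ddx3y split the mutant pups: in members, Ddx3y was at 180 and 238 CPM (UMIs of the gene per 1000000 UMIs) in the WT pups and at 207 in mutant pup 5, and at 0 in mutant pups 3 and 4, where Xist was at 758 and 618 CPM. In these 2 mutant pups genotype and sex differ together from the WT pups and cannot be told apart. In members, 3 of 9 endothelial markers (Kdr, Tie1 and Cldn5) were at 0, and the sum of the endothelial list lay between 5.42 and 10.6 CPM in WT and between 0 and 8.82 CPM in mutant pups. The macrophage list summed to 2.71 to 4.71 CPM in WT and 0 to 92.8 CPM in mutant pups, where 1 member held at least 10 C1qa, C1qb and C1qc UMIs. Hemoglobin and other erythroid genes summed to 16.2 and 1596 CPM in the WT pups and to 6.62 to 30.9 CPM in the mutant pups, so WT pup 2 stood apart.

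Most members were close to the Pthlh limit. Of the 328 members, 185 held 2 Pthlh UMIs, 74 held 3, 30 held 4 and 39 held 5 or more, with a highest count of 23. Just outside the limit, 776 gate cells held 1 Pthlh UMI, and 21228 held none. For Col2a1, the main collagen of cartilage, the members spanned 302 to 1863 UMIs per 10000, with a median of 872. Near that limit, 7 members lay within 30 per 10000 above it (median 315) and 5 other Pthlh cells within 30 per 10000 below it (median 276). Within 2 per 10000 of the Mgp limit there were 8 members (median 18.7) and, beyond it, 10 other cells (median 21.2), and the same range around the Prg4 limit held 3 members (median 18.2) and 2 other cells (median 21.2). The division limit had 10 members with 2 UMIs of Mki67 and Top2a and 4 other cells with 3. Ihh was at 0 UMIs in 325 of the members, 1 member held 2 UMIs of it, and no other Pthlh cell held 3. Within 1 per 10000 of the Col10a1 limit there was 1 member, at 9.29, and no cell just beyond it.

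The label was checked against Sfrp1 and general chondrocyte genes, since Pthlh and Col2a1 chose the cells. Sfrp1, a secreted WNT antagonist of the resting zone that the rule did not use, was at 203 and 259 CPM in the members of the WT pups and at 379, 366 and 336 CPM in those of the mutant pups. All other cells that passed the limits lay at 103 to 168 CPM, below every pup's members, and Ihh-expressing cells at 29.3 to 49.3 CPM. Gate cells without Pthlh lay at 168 to 253 CPM and overlapped with the members. The test against depth-matched gate cells without Pthlh gave a log2 difference of 0.17 ± 0.11 (SE, n = 5 pups, edgeR adjusted p = 0.67), and against all gate cells without Pthlh the log2 difference was 0.32 (adjusted p = 0.0036), but that comparison is not matched for depth. With 10 depth-matched cells drawn for each member, an alternative added after the first values were seen, it was 0.17 ± 0.08 (adjusted p = 0.32). Members also held Acan (4363 to 5723 CPM over pups), Sox9 (1322 to 1828 CPM) and Ucma (3937 to 7365 CPM), genes of the cartilage matrix, its master transcription factor and a protein of the upper growth plate. Ihh-expressing cells held more Acan (7026 to 8358 CPM) and Sox9 (2322 to 3446 CPM), so these genes do not set resting cells apart. Among genes listed for the resting zone, Ucma and Sfrp5 lay above all other cells in each pup, and Bmp3 overlapped. Gas1 (388 to 456 against 509 to 556 CPM), Wif1 (158 to 237 against 447 to 539 CPM) and Smpd3 lay below them in each pup.

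Pthlh was not confined to the gate. The quality limits left 1042 cells with 2 or more Pthlh UMIs, of which the members made up 31.5%. Another 499 failed 1 limit and 215 failed 2 or more. Col2a1 alone kept out 279 cells, Prg4 alone 94, Mgp alone 82, the division genes alone 42 and Col10a1 alone 2, while Ihh kept out none. As a share of gate cells, the members were 2.12% and 1.52% in the WT pups and 0.705%, 1.16% and 1.78% in the mutant pups. Cells that left the gate only through Prg4, which mark the articular side, had 2 or more Pthlh UMIs in 1.03% to 2.20% of cells per pup, and those that left only through Mgp in 0.929% to 2.09%. Those ranges overlap with that of the gate. By level, Pthlh was at 4.44 to 10.5 CPM in gate cells and at 8.22 to 14.9 CPM in the Prg4-rich cells, where each pup's value was above that of its own gate cells.

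Cells outside cartilage held Pthlh as well, among them those defined by Pecam1 and Cdh5, the adhesion molecules of endothelium. Of these endothelial cells, 14 of 555 cells (2.52%, exact 95% interval 1.39% to 4.20%, counting error only) held 2 or more Pthlh UMIs, at 6.92 to 28.3 CPM over pups. Macrophages, which should lack the gene, gave a background of 3 in 634 cells (0.473%, interval 0.0977% to 1.38%) at a median of 8484 UMIs, against 1.47% of gate cells (interval 1.32% to 1.64%) at 9228 UMIs. These are values pooled over pups. Within single pups, macrophages had no such cell in pups 1, 4 and 5, which allows shares of up to 4.92%, 3.03% and 6% (3 counts), and in pups 2 and 3 the exact interval reached 3.16% and 2.78%. These limits lay above the gate's share in each pup, so that no pup's share alone could be set apart from the background at this depth. By level, Pthlh was at 0, 2.96, 1.15, 0 and 0 CPM in the macrophages of pups 1 to 5, on 9 Pthlh UMIs in all. Gate cells held 7.51, 5.84, 4.44, 8.04 and 10.5 CPM, above the macrophages in each pup.

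**Figure D1:**
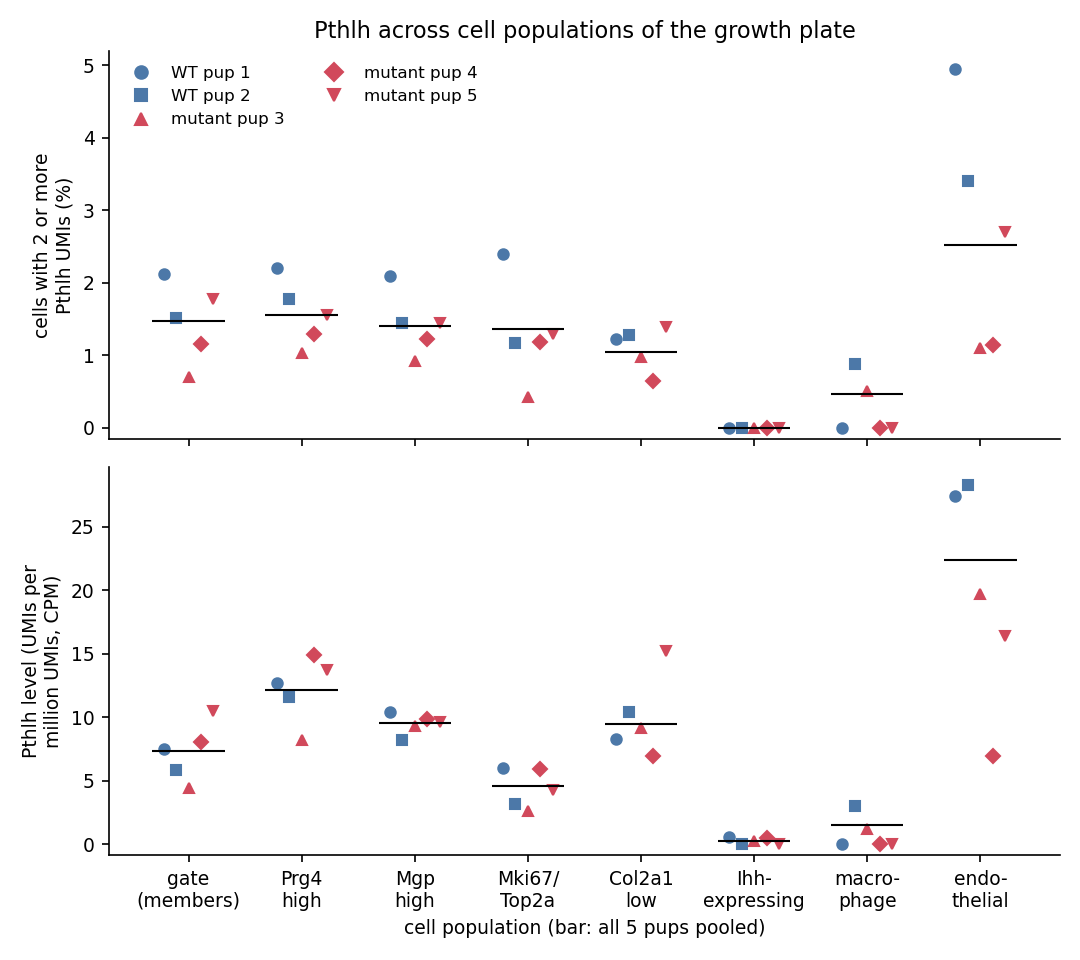
Share of cells with 2 or more Pthlh UMIs (upper panel, percent) and Pthlh level (lower panel, CPM) in each population and pup, with a bar for the 5 pups pooled; blue points are WT and red points mutant pups. Gate cells lay at 0.705% to 2.12%, Prg4-rich and Mgp-rich cells overlapped with them, and Ihh-expressing cells were at 0 in all 5 pups.

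Pthlh and Ihh, the ligands of the loop, were seldom found in the same cell. The rule kept cells with 3 or more Ihh UMIs out of the members. Among cells kept out of the gate only by 3 or more Ihh UMIs, 0 of 535 held 2 or more Pthlh UMIs, which allows a share of up to 0.561% (3 counts), although these cells were deeper, with a median of 25887 UMIs. Their Pthlh level was at most 0.543 CPM in any pup. Against gate cells of any Pthlh count, in which Pthlh was not preselected, the log2 difference was 4.86 ± 0.44 (SE, n = 5 pups, edgeR adjusted p = 2.5e-11), with the gate higher in 5 of 5 pups.

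The members were then compared with gate cells that held no Pthlh UMI, drawn in equal number within each pup and within 10 equal classes of the members' UMI counts, so that both sets had the same depth. Of 7136 genes tested, 24 were higher in members (0.336%) and 21 lower (0.294%), by edgeR with the pup as a block. Levels given beside a test are CPM after TMM normalization, which adjusts the sums for their composition. Higher genes included the hedgehog inhibitor Hhip, the hedgehog-releasing protein Scube2, the guidance molecule Ntn1, the BMP family member Bmp3 and the transcription factor Hes1. Lower genes included Comp, Prelp, Chad and Matn3 of the cartilage matrix and Sp7, Ppa1 and Smpd3, which mark the way to hypertrophy and bone. Among the 45 called genes the direction was the same in all 5 pups for 37, and for 14 the 5 member values did not overlap with the 5 others, as they did not for 1.15% of all genes tested. The count rests on single pups: it was 18 without WT pup 1, 26 without WT pup 2, 103 without mutant pup 3 and 14 without mutant pup 5. DESeq2 called 21 genes, and edgeR without the pup as a block called 5.

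Ntn1, a secreted laminin-like guidance cue encoded on chromosome 11 (GRCm38, 68209364 to 68400823, minus strand), had the largest difference among the genes named as higher. Members held 155 and 71.7 CPM in the WT pups and 66.1, 62.1 and 102 CPM in the mutant pups. Matched cells held 18.2 and 20.8 CPM, and 42.7, 21.3 and 20.1 CPM. The lowest member value stood above the highest matched value, and the log2 difference was 2.17 ± 0.24 (SE, adjusted p = 3.0e-05). Ntn1 did not set members apart from all other cells that passed the limits. In plain CPM those cells held 59.9, 99.8, 112, 74.8 and 62.8 in pups 1 to 5. Members by the same measure held 153, 74.1, 66.1, 59.6 and 98.5, so the other cells were higher in pups 2, 3 and 4.

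Bmp3, a BMP family ligand that antagonizes other BMPs and is listed as a resting zone gene, was at 46.9, 48.9, 39.6, 11.5 and 40 CPM in the members of pups 1 to 5. The matched cells had 20.1, 8.1, 14.2, 0 and 10.7 CPM. Mutant pup 4 was low in both sets, and the log2 difference was 1.81 ± 0.28 (SE, adjusted p = 0.00064). Hes1, a repressor downstream of Notch, lay between 41.4 and 88.8 CPM in members and between 18.9 and 32.6 CPM in matched cells, with no overlap (log2 1.29 ± 0.19, adjusted p = 0.00037).

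On the hedgehog side, 1 of 10 tested response genes was higher and none lower, with a median log2 difference of 0.218 against 0.001 over all genes. That gene was Hhip, which binds hedgehog ligands at the cell surface and is itself induced by them. It was at 40.4 and 55.8 CPM in the members of the WT pups and at 88.1, 18.4 and 60 CPM in the mutant pups. In matched cells it was at 17.3 and 15 CPM, and at 47.5, 7.09 and 17.8 CPM. Both sets were highest in mutant pup 3 and lowest in mutant pup 4, and members were above their own matched cells in 5 of 5 pups (log2 1.48 ± 0.23, adjusted p = 0.00064). All other cells that passed the limits overlapped with members, at 28.3 to 58.7 against 17.6 to 88.2 in plain CPM. In mutant pup 4 alone they were above the members (36.5 against 17.6 CPM), and WT pup 2 was close (54 against 57.6 CPM). Gli1, the response gene most often used as a readout, was above the matched cells in 5 of 5 pups but did not pass the test (log2 0.64 ± 0.21, adjusted p = 0.22), and neither did the receptor Ptch1 (0.27 ± 0.13, adjusted p = 0.53). Of 11 genes of ligand release and reception, Scube2 alone was called, which releases lipid-bearing hedgehog from the cells that make it. Its values were 107, 95.6, 74.9, 23 and 112 CPM in the members of pups 1 to 5 against 42.2, 55.5, 14.2, 11.8 and 58 CPM (log2 1.09 ± 0.18, adjusted p = 0.00094). Smo (0.33 ± 0.12) and Boc (0.54 ± 0.22), a transducer and a coreceptor of hedgehog, had adjusted p of 0.31 and 0.40. With 10 matched cells for each member the coreceptor Gas1 was higher as well (0.41 ± 0.09, adjusted p = 0.018, against 0.18 ± 0.16 and 0.81 with 1). Among the 11 response genes tested in that draw, Hhip and the cyclin Ccnd1 (0.39 ± 0.09, adjusted p = 0.030) were higher and the cell cycle kinase Cdk6 was lower (-0.85 ± 0.17, adjusted p = 0.0085).

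The 250 bases before and 50 after the annotated start of Pthlh and Hhip are shown because these are the ligand that defines the cells and the hedgehog gene that went with it. They were taken from RefSeq on GRCm38.p6, on the gene's strand, 5′ to 3′. Capitals mark exact matches, on either strand, to the CRE motif TGACGTCA, read by CREB, and to the EGR motif GCGGGGGCG, read by EGR1, whose transcript was higher in members.
Pthlh, chr6:147263964-147264263, minus strand: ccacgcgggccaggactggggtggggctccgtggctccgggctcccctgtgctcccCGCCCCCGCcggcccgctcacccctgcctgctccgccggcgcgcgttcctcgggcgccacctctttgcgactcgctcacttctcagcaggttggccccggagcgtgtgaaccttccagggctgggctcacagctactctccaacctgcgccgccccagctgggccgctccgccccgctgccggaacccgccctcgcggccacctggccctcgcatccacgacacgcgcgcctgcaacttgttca
Hhip, chr8:80057959-80058258, minus strand: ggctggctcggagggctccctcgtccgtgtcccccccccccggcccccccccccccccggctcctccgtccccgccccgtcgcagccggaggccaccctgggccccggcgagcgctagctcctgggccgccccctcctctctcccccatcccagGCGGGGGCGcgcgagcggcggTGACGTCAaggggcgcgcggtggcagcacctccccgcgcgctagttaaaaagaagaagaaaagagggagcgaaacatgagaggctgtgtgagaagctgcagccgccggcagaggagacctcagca

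The Pthlh window held an EGR match that began 194 bases before the start used for that window. The gene coordinates given for Ntn1 and Comp come from an annotation that starts Pthlh farther upstream, at 147264183 and inside the window. By that start the match lies closer to the gene, and part of the window is transcribed. In the Hhip window an EGR match began 96 bases and a CRE match 75 bases before the start. Among 32851 such windows of mouse genes the EGR motif was found in 2.91% and the CRE motif in 1.79%. Of the 24 genes higher in members, 16 had a window, and EGR was found in those of Hhip, Nr4a1 and Serpine2 and CRE in that of Hhip. None of the 11 windows of lower genes held either. The other motifs searched were GLI (GACCACCCA, in 0.253% of all windows), RBPJ (GTGGGAA, 6.38%), SOX (AACAAAG, 5.85%), TCF/LEF (ATCAAAG, 3.73%), RUNX (TGTGGTT, 5.27%) and the shorter CRE core (TGACG, 20.8%). GLI, RBPJ, SOX and TCF/LEF were found in none of the 16 windows, RUNX was found in that of Fhl1, and the CRE core in 5 (H2bc6, Hhip, Nr4a1, Tob1 and Tubb4b). Of the 11 windows of lower genes, that of Ckap4 held SOX, that of Ppa1 TCF/LEF, that of Sbno2 RUNX and those of Sdc3 and Slc25a13 the CRE core. These matches describe letters in a window and were not tied to binding.

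Of secreted WNT antagonists, none of 11 passed the test (median log2 0.169 against 0.001). Sfrp5, which marks the resting zone, was nonetheless above the matched cells in every pup, with 511, 362, 352, 136 and 512 CPM in members and 77.7, 204, 209, 49.6 and 112 CPM in matched cells. Mutant pup 4 was lowest in both sets. The log2 difference was 1.67 ± 0.38 (SE), with adjusted p = 0.29. When 10 matched cells were drawn for each member, the log2 difference was 1.71 ± 0.10 (SE) and the adjusted p was 4.4e-09. That draw called 82 genes higher (0.909%) and 75 lower (0.832%) of 9019. Sostdc1 was also higher in it and the WNT antagonists Wif1 (log2 -0.42 ± 0.10) and Frzb (-0.40 ± 0.10) were lower.

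After each cell was thinned to 5000 UMIs, which left out 23 members and 19 matched cells, Sfrp5 was detected in 38.4% of members (exact 95% interval 32.9% to 44.1%) and 18.4% of matched cells (14.3% to 23.2%). Unthinned, the shares were 46.6% and 24.1%. In macrophages it was found in 0.876% after thinning. Across pups the members' share ran from 15.6% to 56.1%, so most members of some pups lacked a Sfrp5 UMI at this depth. Ntn1 was detected in 20.3% of members, 7.12% of matched cells and 4.38% of macrophages after thinning, and Hhip in 12.5%, 6.15% and 2.28%. For each of these genes, most of the thinned members held no UMI.

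Of 25 resting zone genes tested, Bmp3 was higher, Smpd3 and Gdf10 were lower, and 22 did not pass, with a median log2 difference of -0.074. Ucma had a log2 difference of 0.10 ± 0.07 and Gas1, a hedgehog coreceptor, 0.18 ± 0.16, both short of the threshold, which Gas1 passed with 10 matched cells as given above. In that draw Bmp3, Sfrp5 and Podn were higher too, and Smpd3 and Wif1 lower. Gdf10, a BMP family ligand, was at 68.9, 173, 198, 46 and 58.9 CPM in members and at 179, 324, 218, 199 and 194 CPM in matched cells (log2 -1.22 ± 0.21, adjusted p = 0.038). It was lower in 5 of 5 pups, least so in mutant pup 3. With 10 matched cells it lost its call (log2 -1.09 ± 0.30, adjusted p = 0.23).

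Matrix genes were among the lower ones. Of 30 cartilage matrix genes tested, 4 were lower, none was higher and 26 did not pass, with a median of -0.203. Comp, a pentameric matrix protein on chromosome 8 (70373558 to 70382066), was at 985 and 823 CPM in the members of the WT pups and at 757, 897 and 811 CPM in the mutant pups. Matched cells had 1476 and 1419 CPM, and 1215, 1440 and 1370 CPM. The sets did not overlap (log2 -0.70 ± 0.08, adjusted p = 9.4e-06). Prelp, a leucine-rich matrix protein, was lower in 4 of 5 pups (log2 -0.69 ± 0.12), and Chad (-0.45 ± 0.10) and Matn3 (-0.34 ± 0.08) in 5 of 5. With 10 matched cells 5 of the 30 were lower and 2 higher. Chad lost its call (-0.30 ± 0.08, adjusted p = 0.066), Hapln1 (-0.26 ± 0.06) and Col9a3 (-0.24 ± 0.06) were lower, and Vit (0.90 ± 0.22) and Matn4 (0.60 ± 0.12) were higher.

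Of 19 genes of prehypertrophic and hypertrophic cells, Sp7 and Ppa1 were lower, none was higher and 17 did not pass (median -0.250). Sp7 encodes osterix, which osteoblasts and hypertrophic chondrocytes need, and was at 5.52, 14.8, 0, 6.9 and 2.35 CPM in the members of pups 1 to 5. Matched cells had 24, 28.9, 4.75, 18.9 and 30.8 CPM (log2 -1.85 ± 0.36, adjusted p = 0.0089). Ppa1, a pyrophosphatase, was at 61.6, 109, 44, 48.3 and 54.2 CPM against 158, 317, 75.9, 258 and 323 CPM (log2 -1.83 ± 0.19, adjusted p = 0.00012). Members were below their matched cells in each pup, although the matched cells of mutant pup 3 were below the members of WT pup 2. Smpd3, a sphingomyelinase of mineralizing cartilage that is listed under the resting zone and osteoblasts, was at 58.8, 46.7, 44, 39.1 and 54.2 CPM against 124, 105, 23.7, 165 and 148 CPM (log2 -1.26 ± 0.19, adjusted p = 0.0012), with mutant pup 3 going the other way. In that pup the matched set was 27 cells, and all its gate cells without Pthlh gave 386 CPM. With 10 matched cells the hypertrophic genes Runx3 (-0.75 ± 0.16) and Pth1r were lower besides Sp7 and Ppa1.

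The other genes named by size were as follows. Higher were Rdh10 of retinoic acid synthesis (log2 1.13 ± 0.26), Rasl11b (1.10 ± 0.26), Pou3f3 (0.82 ± 0.17), the tubulin Tubb4b (0.80 ± 0.13) and Marcks (0.77 ± 0.16), each in 5 of 5 pups. Lower in 5 of 5 pups were the cytokine Il17b (-1.56 ± 0.25), the secreted Ccdc80 (-1.37 ± 0.16), the lipid carrier Fabp5 (-1.09 ± 0.18), Sbno2 (-0.99 ± 0.19), Camk2g (-0.99 ± 0.22), the nucleotide carrier Slc25a5 (-0.62 ± 0.15) and the proteoglycan Sdc3 (-0.56 ± 0.10). Ccdc80 was at 30.8 to 46.7 CPM in members and 72.9 to 128 CPM in matched cells.

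Below the receptor of PTHrP, none of 19 genes passed (median -0.024). Pth1r itself was low in members, at 31.3, 44.4, 48.4, 20.7 and 30.6 CPM, and at 45.1, 44, 19, 30.7 and 47.3 CPM in matched cells (log2 -0.26 ± 0.22, adjusted p = 0.78). With 10 matched cells it was lower in members (-0.74 ± 0.15, adjusted p = 0.010). Among 18 mechanosensitive channel and calcineurin-NFAT genes Camk2g was lower and the rest did not pass, and with 10 matched cells none of 20 passed (Camk2g log2 -0.64, adjusted p = 0.095). Trpv4 was at 195, 132, 106, 175 and 204 CPM in members and at 219, 145, 138, 206 and 220 CPM in matched cells, slightly below them in each pup, without passing the test (-0.18 ± 0.11, adjusted p = 0.67). Of 18 WNT receptor and response genes none passed, of 7 Notch genes tested Hes1 was higher, of 35 cartilage transcription factors Hes1 and Shox2 were higher (Shox2 not with 10 matched cells, log2 0.39 ± 0.11, adjusted p = 0.072), and of 38 TGF-β and BMP genes Bmp3 was higher and Gdf10 lower. None of 24 FGF, natriuretic peptide and IGF genes, 21 cell cycle genes, 16 metallothionein and hypoxia genes, 10 immune genes, 7 articular genes, 15 perichondrial genes, 5 tendon genes or 2 Schwann cell and pericyte genes passed. In this draw and that of 10 matched cells, both sets had passed the Prg4 limit and that on Mki67 and Top2a. The rule thus narrowed in advance what the articular and cell cycle lists could show. Of 4 osteoblast genes Sp7 and Smpd3 were lower, and the erythroid, macrophage, granulocyte, endothelial and muscle lists had no gene above the filter.

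The draw of 10 matched cells, which tested more genes, called members of several of these lists in both directions. Of 22 WNT receptor and response genes Fzd7 (log2 0.70 ± 0.14) and Lef1 (0.60 ± 0.15) were higher. Of 38 cartilage transcription factors Hes1, Tbx4 (1.05 ± 0.20), Klf2 (0.53 ± 0.09) and Klf4 (0.27 ± 0.07) were higher and Runx3 and Runx1 (-0.55 ± 0.12) lower. Of 46 TGF-β and BMP genes Bmp3 and Smoc1 (0.69 ± 0.15) were higher and Tgfbi (-0.59 ± 0.08) lower. Of 26 FGF, natriuretic peptide and IGF genes Spry1 (1.38 ± 0.35), Ccn3 (1.08 ± 0.16), Npr2 (0.50 ± 0.12) and Igfbp4 (0.43 ± 0.11) were higher, and Prkg2, a kinase below Npr2, was lower (-1.05 ± 0.20). Ccnd1 was the only call of 24 cell cycle genes, Ddit4 (0.50 ± 0.12) of 18 metallothionein and hypoxia genes and Egr2 of 6 tendon genes, each higher. The immune, articular, perichondrial, Schwann cell and pericyte, erythroid and muscle lists held no call in it.

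Of 21 genes that respond to tissue dissociation, the immediate early genes Egr1 and Nr4a1 were higher, none was lower and the median was 0.259. Egr1 was at 2993, 2534, 2004, 1900 and 3044 CPM in members and 2783, 1775, 1523, 1532 and 1947 CPM in matched cells (log2 0.39 ± 0.08, adjusted p = 0.018), and Nr4a1 was higher by 0.65 ± 0.11 (adjusted p = 0.0034). The list as a whole summed to 20318 to 28205 CPM in members and 13609 to 23348 CPM in matched cells. With 10 matched cells the heat shock gene Hspa1b (log2 1.66 ± 0.12) and Egr2 (0.93 ± 0.18) were higher too. The part of handling in these differences was not tested.

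**Figure D2:**
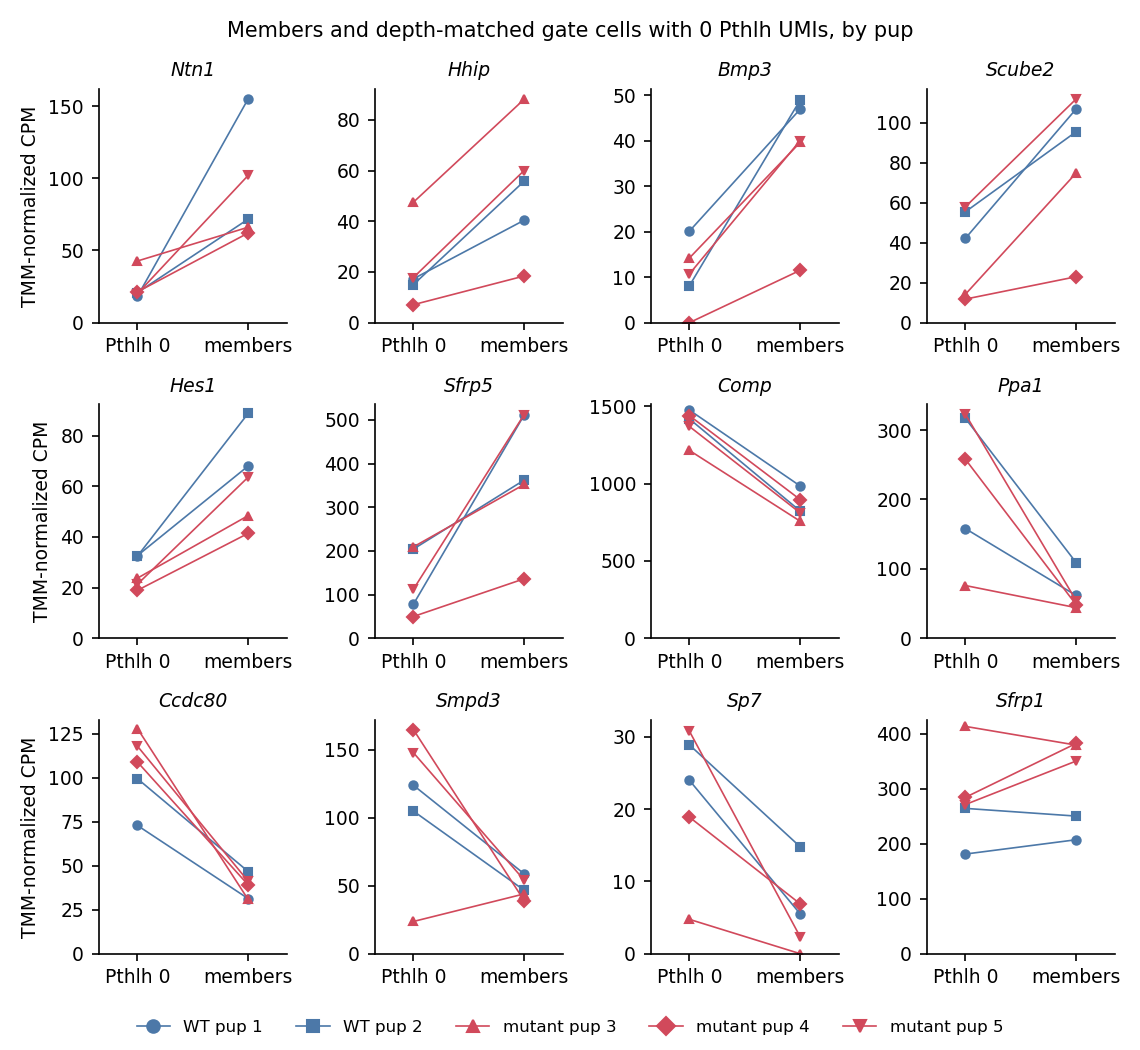
TMM-normalized CPM of 12 genes in gate cells with 0 Pthlh UMIs matched for depth (left) and in members (right), with a line for each pup. Ntn1, Hhip, Bmp3, Scube2, Hes1 and Sfrp5 were higher in members in all 5 pups (Sfrp5 short of the threshold), Comp, Ppa1, Ccdc80 and Sp7 lower in all 5, Smpd3 lower in 4 of 5, and Sfrp1 crossed.

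Gate cells with 1 Pthlh UMI were not members, and they offer other cells of the same pups. They were compared with matched gate cells without Pthlh that were not those of the members' comparison, in an alternative added after the first values were seen. Of 9033 genes, 48 were higher (0.531%) and 69 lower (0.764%), and the 117 calls became 35 without WT pup 1, 178 without WT pup 2, 59 without mutant pup 4 and 25 without mutant pup 5 (DESeq2 45, edgeR without the pup as a block 11). Both comparisons are set side by side here for the same genes, and they share the pups. Hhip was higher by 0.99 ± 0.16 in the 1-UMI cells (adjusted p = 0.0016) and by 1.48 in members, and Ntn1 by 1.15 ± 0.21 (adjusted p = 0.021) and 2.17. Pappa2, a protease that frees insulin-like growth factors, was higher by 1.49 ± 0.12 in the 1-UMI cells and by 1.10 ± 0.20 in members, where 4 of 5 pups showed it. Comp was lower in both, with log2 differences of -0.44 ± 0.05 in the 1-UMI cells and -0.70 in members, as were Prelp (-0.75 ± 0.06 and -0.69) and Ppa1 (adjusted p = 0.012, against log2 -1.83 in members). Gli1 passed in the 1-UMI cells alone (0.53 ± 0.13, adjusted p = 0.0499, against 0.64 in members), and the difference between the comparisons was not tested. Bmp3 (1.14, adjusted p = 0.077), Hes1 (0.60, adjusted p = 0.058), Scube2 (0.74, adjusted p = 0.13), Sp7 (-1.21, adjusted p = 0.096) and Smpd3 (-1.01, adjusted p = 0.42) did not pass in the 1-UMI cells.

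Levels by Pthlh count are given as a description. Depth differed little by the median, the median cell holding 9204, 9396, 9852 and 10149 UMIs at 0, 1, 2 and 3 or more Pthlh UMIs. The cells at 0 were not matched for depth, however. Their pooled Smpd3, Ppa1 and Pth1r lay above every pup's value in the depth-matched cells given earlier. The steps from 0 UMIs are thus not depth-matched differences. For Pth1r the depth-matched log2 difference was -0.26 with 1 matched cell and -0.74 with 10. Over all pups Sfrp5 was at 112, 276, 321 and 528 CPM at these counts, Ntn1 at 23.9, 58, 83.5 and 127 CPM, and Bmp3 at 9.91, 22.9, 27.7 and 56.8 CPM. Comp was at 1405, 978, 929 and 782 CPM, and Smpd3 at 241, 66.9, 66.9 and 29.4 CPM. Most of the difference in Ppa1 lay between 0 and 1 UMI, from 339 to 100 CPM. Sfrp1 ran from 224 to 303 CPM. Hhip was at 14.6, 38.7, 35.2 and 66.5 CPM, and as a mean of the pups' values at 14.5, 40.4, 42.6 and 60.7 CPM. Other genes followed no steady order pooled or by the mean of pups: pooled, Pappa2 was at 36.7, 94.2, 79.5 and 129 CPM, Prelp at 817, 434, 445 and 442 CPM and Pth1r at 82.9, 32.9, 35.7 and 31.3 CPM. Ptch1 was at 159, 145, 169 and 201 CPM. Single pups left the pooled order at 2 as well as at 3 or more UMIs. From 1 to 2 UMIs Sfrp5 went from 343 to 284 CPM in WT pup 2 and from 316 to 234 CPM in mutant pup 5, and Ntn1 went from 44.1 to 38.4 CPM and from 61.2 to 34.7 CPM in the same pups. The class of 3 or more held 143 cells over 5 pups. There Sfrp5 was at 71.1 CPM in mutant pup 4, Ntn1 at 0 in mutant pup 3 and Bmp3 at 0 in mutant pups 3 and 4.

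**Figure D3:**
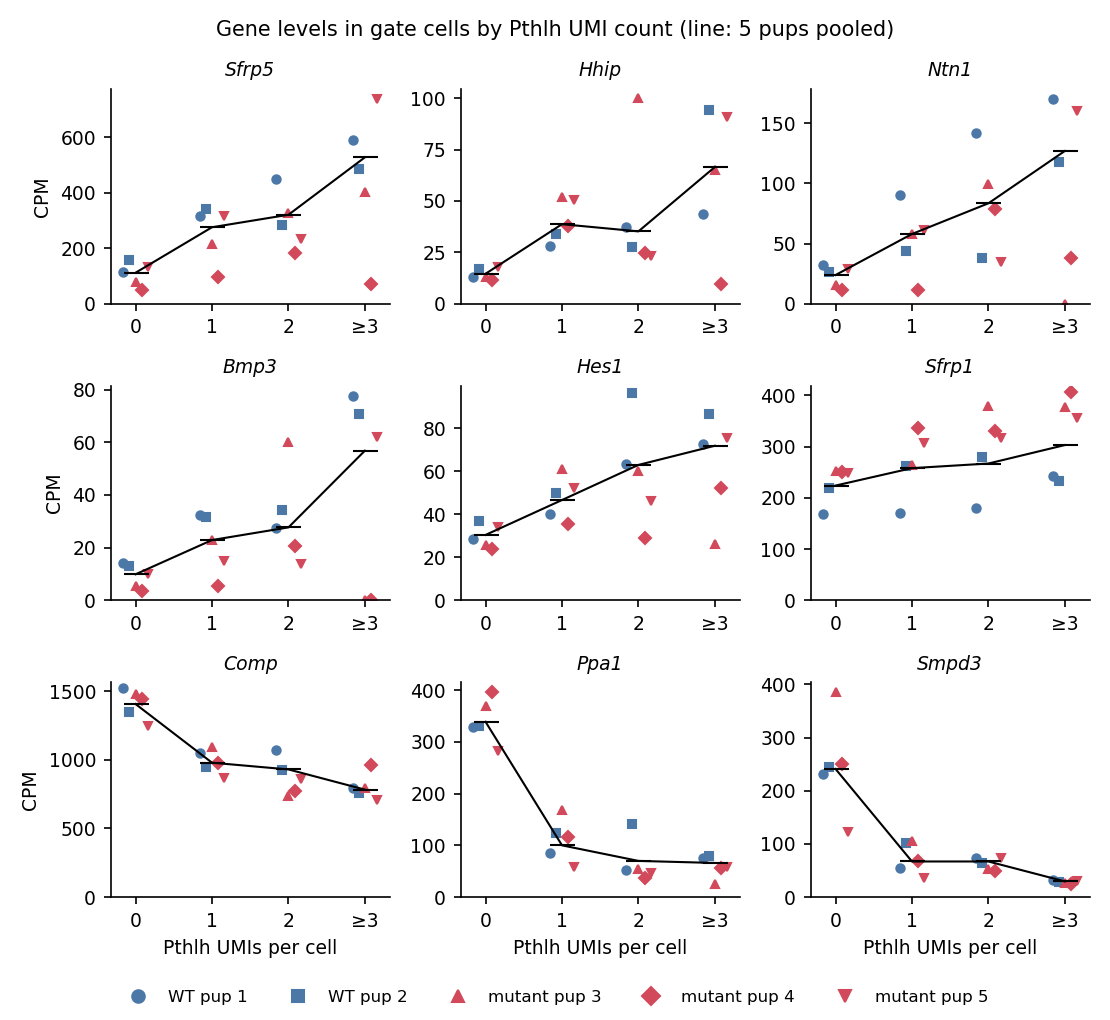
CPM of 9 genes in gate cells by their Pthlh UMI count (0, 1, 2, and 3 or more), with points for pups and a line for the 5 pups pooled. Sfrp5 went from 112 to 528 CPM and Comp from 1405 to 782 CPM, with single pups leaving the order at 2 and at 3 or more UMIs.

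Against the Ihh-expressing cells the members differed in much of the transcriptome, with 25.9% of 8231 genes higher and 25.6% lower, and each list below is read against those shares. The Ihh cells were deeper, at 22594 to 32129 UMIs in the median cell of each pup against 6870 to 12372 in members, and this was not matched. After thinning each cell to 5000 UMIs, which left out 23 members, 2175 of 4613 genes tested were called in place of 4242 of 8231. The gate of any Pthlh count also differed from the Ihh cells, in 8139 of 14673 genes. In plain CPM, gate cells without Pthlh held Gas1 at 231 to 331, Pth1r at 53.6 to 104 and Wif1 at 190 to 288. Ihh cells held them at 9.45 to 30.4, 530 to 893 and 7.11 to 31.1. For these genes the differences below are thus shared with the gate and not particular to members. The same direction held for others named below. Gate cells without Pthlh held Rcan1 at 833 to 1335 (Ihh cells 239 to 439) and Mef2c at 125 to 196 (611 to 838). They held Panx3 at 192 to 365 (1868 to 2419) and Sfrp1 at 168 to 253 (29.3 to 49.3). Col1a1 was at 11272 to 19298 (852 to 2678) and Igfbp5 at 112 to 197 (8.53 to 22.2). For Igfbp5, members lay above both at 322 to 559.

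Of 15 genes of hedgehog release and reception, 9 were higher in members and 3 lower, with a median log2 difference of 1.001 against -0.013 over all genes. Gas1 was at 472, 403, 381, 419 and 451 CPM in members and at 22.2, 9.61, 15.1, 10.2 and 30.9 CPM in Ihh cells (log2 4.71 ± 0.19, adjusted p = 2.7e-09). Boc, another coreceptor, was higher by 2.93 ± 0.26, and Gli2, the main activator among the Gli factors, by 3.31 ± 0.26. Disp1, needed to release the ligand, was lower in members (log2 -2.31 ± 0.26), as were Scube1 (-2.63 ± 0.25) and Kif7 (-1.26 ± 0.28), a kinesin of the pathway. The receptor Ptch1 (0.20 ± 0.22, adjusted p = 0.485, higher in 2 of 5 pups) and Gli3 (0.28 ± 0.16, adjusted p = 0.142) did not pass. Among 11 response genes 5 were higher and 2 lower. Gli1 was at 44.9, 61.8, 34.6, 26 and 47.1 CPM in members and 13.3 to 18.1 CPM in Ihh cells (log2 1.55 ± 0.21, adjusted p = 1.95e-06), and Hhip at 18.9 to 86.6 CPM and 1.11 to 3.48 CPM (4.63 ± 0.27, adjusted p = 5.65e-12). Cdk6 went the other way (-2.50 ± 0.17), as did the transcription factor Foxc1 (-1.21 ± 0.12).

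The receptor for PTHrP went the other way. Pth1r was at 31.8, 44.6, 47.6, 21.3 and 30.6 CPM in members and at 717, 909, 745, 600 and 537 CPM in Ihh cells (log2 -4.35 ± 0.12, adjusted p = 2.0e-17). Mef2c, a driver of hypertrophy that PTHrP signalling restrains through Hdac4, was lower in members (-2.73 ± 0.14), and Hdac4 and Zfp521 were higher by 1.27 ± 0.22 and 1.30 ± 0.17. In all, 10 of 20 genes on the receptor's list were higher and 3 lower. Of 11 WNT antagonists 7 were higher and none lower, with a median of 3.293. They included Sfrp1 (2.84 ± 0.13), Sfrp5 (3.62 ± 0.41), Sfrp2 (4.06 ± 0.32) and Wif1 (3.32 ± 0.25). Among resting zone genes 14 of 24 were higher and 6 lower, and among hypertrophic genes 5 of 22 were higher and 15 lower. Panx3, a channel of prehypertrophic cells, was at 2.36 to 75.6 CPM in members and 1896 to 2462 CPM in Ihh cells.

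The genes with the largest differences were higher in members for Igfbp3 (log2 5.58 ± 0.37) and Igfbp5 (4.97 ± 0.31), which bind insulin-like growth factors, and for Pappa2 (5.24 ± 0.52), Ntn1 (5.04 ± 0.22), Col8a1 (4.65 ± 0.73), Clmn (4.62 ± 0.28), 6330403K07Rik (4.47 ± 0.26) and the tenascin Tnn (4.12 ± 0.60). Lower in members were Cbln2, which was at 0 in all member sums and at 30 to 54 CPM in Ihh cells, Panx3, Prss50, Smpd3 (-5.50 ± 0.12), the channel Mcoln3, Ppa1 (-5.04 ± 0.22), Slc35g1, Fxyd2, the phosphatase Alpl (-4.77 ± 0.36) and Smim5. Trpv4 was at 198, 133, 104, 180 and 204 CPM in members and at 278, 173, 185, 276 and 262 CPM in Ihh cells, lower in 5 of 5 pups (-0.50 ± 0.10, adjusted p = 0.00021). Rcan1, a target and inhibitor of calcineurin, was higher by 1.43 ± 0.10. Of the mechanosensitive and calcineurin genes, 5 of 18 were higher and 5 lower.

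Lists of other lineages differed as well. Of 16 perichondrial genes tested 15 were higher in members, with Col1a1 and Col3a1 among them, and all 7 articular genes tested were higher. Col1a1 was at 11334 to 26321 CPM in members, 852 to 2678 CPM in Ihh cells and 3714 to 10088 CPM in macrophages, and its presence in macrophages, which should lack it, shows a background whose part in the difference was not tested.

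**Figure D4:**
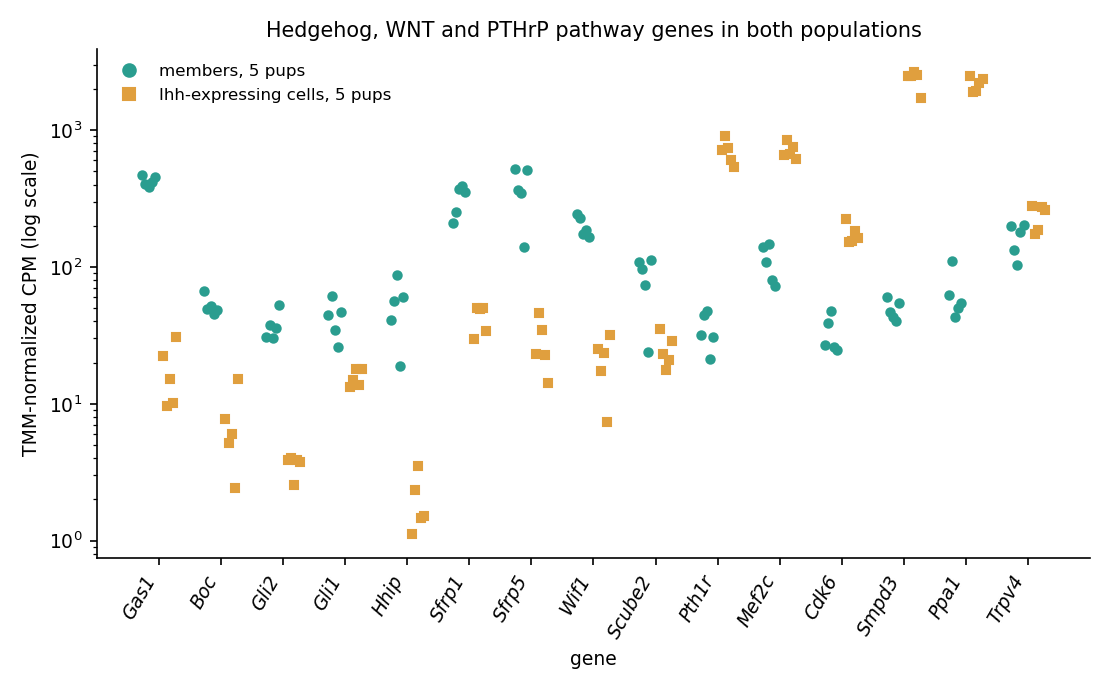
TMM-normalized CPM on a log axis for 15 genes in members (green circles) and in Ihh-expressing cells (orange squares), 5 pups each. Gas1, Boc, Gli2, Gli1, Hhip, Sfrp1, Sfrp5 and Wif1 were higher in members without overlap, Pth1r, Mef2c, Cdk6, Smpd3 and Ppa1 lower without overlap, and Scube2 and Trpv4 overlapped.

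Between genotypes, the shares of members overlapped. Members were 0.582% and 0.405% of all cells in the WT pups (mean 0.493% ± 0.125, SD, n = 2) and 0.141%, 0.324% and 0.637% in the mutant pups (mean 0.367% ± 0.251, SD, n = 3). The lowest and the highest value both belonged to mutant pups, and the exact two-sided permutation test over the 10 groupings gave p = 0.5, where the smallest p it allows is 0.1. Within the gate the means were 1.82% ± 0.421 and 1.21% ± 0.54 (exact permutation p = 0.3). Cells of at least 5000 UMIs were also thinned to 5000 before the rule was applied, and cells below that were left out. This kept 13522 of 15121 and 14441 of 16561 cells in the WT pups. In the mutant pups it kept 14085 of 19133, 11583 of 17887 and 10455 of 13814. The share in the gate was then 0.743% and 0.536% in the WT pups and 0.475%, 0.502% and 0.938% in the mutant pups (exact permutation p = 1), and the difference of means moved from -0.607 to -0.00128 percentage points. As a share of all cells kept, the difference moved from -0.126 to 0.0368 percentage points. The part of the cells left out, more of them in mutant pups, in these moves was not tested. The Pthlh level over the whole gate, which does not depend on the 2-UMI limit, was 7.52 and 5.45 CPM in WT and 4.43, 8.57 and 10.6 CPM in mutant pups (log2 0.28 ± 0.36, edgeR adjusted p = 0.86).

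No gene passed the threshold between mutant and WT members. With 155 WT and 173 mutant cells, edgeR called 0 of 7708 genes (0%), DESeq2 also 0, and 346 genes had an unadjusted p under 0.05. The count was 45 without WT pup 1, 6 without WT pup 2 and 3 without mutant pup 5. Without either WT pup the WT arm is 1 sample, so the spread comes from the mutant pups alone and the lone WT pup is assumed to vary like them. DESeq2 had 102 genes at an unadjusted p under 0.05. The limit of 2 Pthlh UMIs was applied at unlike depth. The median member held 12372 and 11025 UMIs in the WT pups and 7942, 6870 and 9396 in the mutant pups. Pthlh, which chose the cells, was at 221 and 241 plain CPM in WT and 317, 395 and 338 in mutant members. Members of the 2 genotypes were thus not selected at the same Pthlh level, and its part in the differences was not tested. Of all genes 18.5% had WT and mutant pups that did not overlap (8.94% higher and 9.57% lower in the mutant pups), and such a separation is to be read against that share. Sfrp1 was among them, at 211 and 253 CPM in WT and 380, 389 and 354 CPM in mutant members (log2 0.69 ± 0.19, edgeR adjusted p = 0.999, unadjusted p = 0.0023). The same gene over all gate cells was at 169 and 207, and 253, 271 and 255 CPM (log2 0.47 ± 0.11, adjusted p = 0.52), and these cells include the members.

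Closest to the threshold were Clec3b, a plasminogen-binding lectin (24.4 and 65.6 against 0, 2.34 and 0 CPM, adjusted p = 0.077), and the acute-phase gene Serpina3n (85.2 and 54.1 against 172, 157 and 195 CPM, log2 1.33 ± 0.24, adjusted p = 0.23). Rcan1 was at 756 and 707 CPM in WT and 887, 1437 and 1035 CPM in mutant members (log2 0.62 ± 0.20, edgeR unadjusted p = 0.0076, adjusted p = 0.999). Over all gate cells, the members included, Rcan1 was at 869 and 774 CPM in WT and 964, 1165 and 1330 CPM in mutant pups (log2 0.49 ± 0.14, adjusted p = 0.54). Trpv4, whose transcripts the counts do not split by allele, was at 199 and 134 CPM and at 106, 178 and 206 CPM (log2 0.03 ± 0.25), with overlapping groups. Xist and Ddx3y followed the sex-linked pattern given above, with edgeR adjusted p of 0.999 each. The 20 tested genes below PTHrP, 11 hedgehog response genes and 11 WNT antagonists held no call, and their median log2 differences were 0.065, 0.047 and 0.232 against 0.001 over all genes.

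Whether the mutant effect in members differed from that in matched gate cells was tested for 8392 genes, and 1 passed (0.0119%), the immediate early gene Arc, whose values are given in the closing section.

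**Figure D5:**
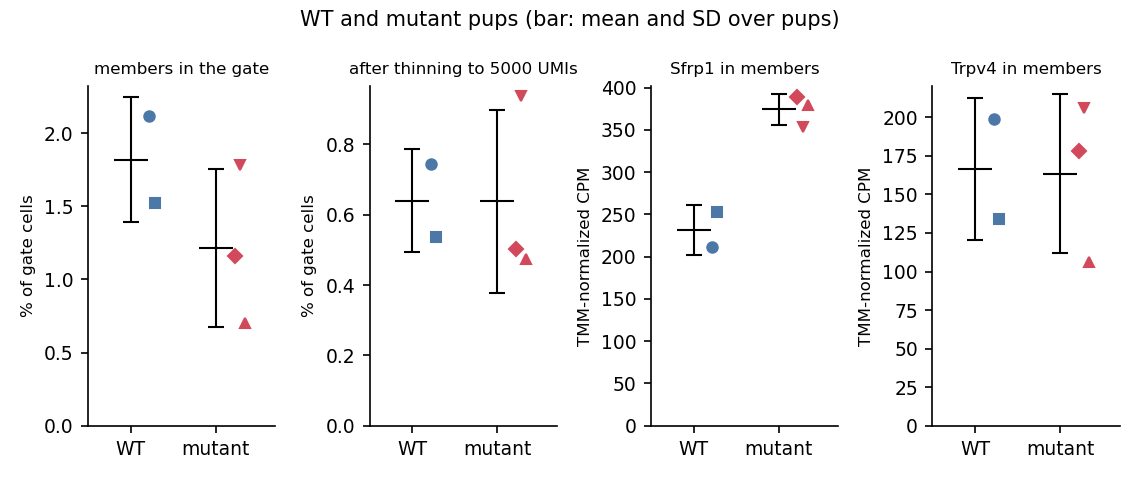
Share of members in the gate before and after thinning cells to 5000 UMIs (percent of gate cells), and Sfrp1 and Trpv4 in members (TMM-normalized CPM), with a point for each of 2 WT and 3 mutant pups and a bar for mean and SD. Cells under 5000 UMIs were left out of the thinned share. The shares and Trpv4 overlapped between genotypes, and Sfrp1 was at 211 and 253 CPM in WT and at 354 to 389 CPM in mutant pups.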

How the data were processed

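The authors prepared single-cell libraries with the BD Rhapsody HT Express system and deposited, for each of 5 pups, UMI counts per gene and cell barcode, not normalized, with the build mm10 in the submitters' processing notes. The aligner and pipeline version are not given in the sources used here. Cells with 200 to 6000 genes and at most 10% mitochondrial UMIs were kept, 13814 to 19133 per pup. Rule limits were applied to raw counts, with UMIs per 10000 for Col2a1, Prg4, Mgp and Col10a1. Macrophages held at least 10 UMIs of C1qa, C1qb and C1qc, endothelial cells at least 5 of Pecam1 and Cdh5, both with Col2a1 under 300 per 10000. Doublets were not removed. By simulated doublets, 53 members were in the top 10% of scores of their pup, and leaving such cells out was an alternative. Such cells made up 13.6%, 22.4%, 11.1%, 19% and 13.6% of the members of pups 1 to 5. Among gate cells the shares were 10.3%, 12%, 11.2%, 11.6% and 10.9%.

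Counts were summed per pup and population and tested with edgeR 4.0.16 (TMM, filterByExpr, robust quasi-likelihood, Benjamini-Hochberg at 0.05) in R 4.3.3, with the pup as a block where both populations came from the same pup. That pairing comes from the animal. DESeq2 1.42.0 was an alternative, beside other Pthlh limits, filters, draws, thinned counts and leaving out each pup. Shares were compared with exact permutation tests. Comparisons with 10 matched cells, of the 1-UMI cells and of the whole gate with Ihh cells were added after seeing the data. Depth-matched cells were drawn with seed 1. Levels called TMM-normalized belong to the fits, others are plain CPM, and levels are compared only within a gene. Genes used by the rule were not counted as calls. Pups are the replicates. The edgeR p-values rest on the spread between pups, moderated with information shared across genes. The SE beside an edgeR log2 difference is that difference, without its sign, divided by the square root of the F statistic. Neither covers which cells the draw of matched cells happened to pick. Up to 10 genes per direction were named by log2 difference in the comparisons with matched and Ihh cells, with adjusted p under 0.05, a mean of at least 20 CPM and the same direction in every pup, beside genes of the hedgehog, PTHrP, WNT antagonist, resting zone and calcium lists. Further genes named were picked with their values known. The members and the 27 gene lists were chosen with earlier results of these data known. Scripts were tested on simulated data. Intervals and limits for a count of 0 (3 counts) cover counting error only.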

Additional observations from a re-analysis of the deposited data

Results flagged for a closer look

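Arc, an immediate early gene, was the 1 gene whose mutant effect differed between members and matched gate cells (interaction log2 3.34 ± 0.56, SE, edgeR adjusted p = 0.011). In members it was at 107 and 201 CPM in WT and 38.7, 4.59 and 73.7 CPM in mutant pups, and in matched cells at 63 and 121, and 4.66, 0 and 3.52 CPM. All gate cells without Pthlh, from which the matched cells were drawn, held 41.9 and 65.8, and 36.6, 10.2 and 20.4 CPM, so the matched cells of the mutant pups were low for their population. With another draw the difference was 0.15 (adjusted p = 1.0), and with 10 matched cells for each member it was -0.67.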

How the results depend on the processing

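The 45 genes that differed between members and matched cells became 21 by DESeq2, 131 with no filter on low counts, 5 without the pup as a block, 23 with members at 3 or more Pthlh UMIs, 364 at 1 or more, 797 against all gate cells without Pthlh, and 157 with 10 matched cells for each member, which was added after seeing the data. Another draw of matched cells gave 30, leaving out called doublets gave 41, and leaving out 1 pup gave 14 to 103. Of the 20 genes named by size there, Ccdc80, Comp and Hes1 kept their call under all 16 alternatives, Bmp3 lost it in 1 of 14, Ppa1 and Sdc3 in 2 of 16, Hhip, Ntn1, Scube2, Il17b and Tubb4b in 3, Fabp5 in 4, Sbno2 in 7, Rdh10 in 8, Gdf10 and Slc25a5 in 9, Marcks and Pou3f3 in 10, Rasl11b in 9 of 15 and Camk2g in 12 of 15. The 4242 of 8231 genes against Ihh-expressing cells became 2175 of 4613 after thinning and 3582 to 4153 with 1 pup left out. Mutant against WT gave 0 calls, and 24 with no filter, 2 at 3 or more Pthlh UMIs and 0 to 45 with 1 pup left out, where a lone WT pup is assumed to vary like the mutant pups. The 1 gene of the mutant effect in members against gate cells became 0 by DESeq2 and without called doublets, 8 with no filter, 2 at 3 or more and 6 at 1 or more Pthlh UMIs, 2 with another draw, 18 against all gate cells, 4 with 10 matched cells and 2 to 14 with 1 pup left out. Arc turned to -0.818 without called doublets, -0.475 against all gate cells and -0.668 with 10 matched cells. Thinning turned the difference in the share of members to 0.0368 percentage points. With 1 pup left out, that difference ran from -0.261 to -0.0126, that within the gate from -0.905 to -0.309 and Pthlh over the gate from log2 0.005 to 0.563. The cause of these changes was not tested. No paired analysis was possible for mutant against WT because each pup has 1 genotype and the pups are not paired. With 27 to 88 members per pup, depth limits genes of low level.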
